A study of Mus musculus with 48 samples.

Results

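Neuropeptide precursor genes, 8 in number, were followed through 4 regions of the mouse brain after spaceflight, with or without the antioxidant BuOE. The members were the rows named Sst, Cck, Npy, Penk, Pdyn, Tac1, Cort and Crh in the normalized tables of the 4 regions. All 8 members were present, out of 15782 genes in all, each with a value in every area sampled. Male C57BL/6 mice, 10 weeks old, spent 35 days on the International Space Station (FLT) or in cages of the same flight hardware on the ground (GC), and the ground protocol began 3 days later. They received saline (SAL) or BuOE, a manganese porphyrin that mimics superoxide dismutase, at 1 mg/kg in 0.2 mL under the skin from 7 days before launch and then weekly. This gave a saline and a BuOE group in flight (FLT-SAL and FLT-BuOE) and on the ground (GC-SAL and GC-BuOE), with 3 mice in each. Flight mice were flown back to Earth and reached the laboratory within 20 h of splashdown, so the brains were taken after landing and not in orbit.

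The method was GeoMx digital spatial profiling of RNA, in which tagged probes bound to a tissue section are released by light from a chosen area of illumination (AOI) and counted by sequencing. Each mouse gave 1 AOI in the Cornu Ammonis 1 field of the hippocampus (CA), the dentate gyrus (DG), the frontal cortex (FCT) and the cortex (CT), which made 48 AOIs from 12 mice. Values are Q3-normalized counts, that is, probe counts scaled so that the upper quartile of the genes is the same in every AOI. Depth ranged from 322629 to 1579380 deduplicated counts per AOI, and its median was 991426 in FLT-SAL against 548888 to 639735 in the other groups. Each group was mounted on its own slide, and a slide effect cannot be told apart from a group effect. The labels DG and CA were borne out by the markers Prox1 of dentate granule cells, with a mean of 112 in DG and 27.2 to 32.2 elsewhere, and Fibcd1 of CA1 pyramidal cells, with 91.3 in CA and 20.7 to 31.5 elsewhere. Not every listed marker followed its region. Tdo2 of granule cells averaged 21.5 in DG and 22.8 in CA, and Mpped1 of CA1 cells 138 in CA, 121 in FCT and 116 in CT. These markers do not tell FCT from CT.

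Neuropeptides are made as longer precursors, which are cut by proprotein convertases in the secretory pathway, packed in dense-core vesicles and released mostly during sustained firing. They act on G protein-coupled receptors and adjust the response of neighbouring neurons to fast transmitters. In hippocampus and cortex several of these genes mark classes of GABAergic interneurons, Sst and Npy among them, whereas Cck is used both by interneurons and, at the transcript level, by pyramidal neurons. An AOI holds many cell types, so fewer cells of a type and less RNA per cell cannot be told apart in these values.

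Sst encodes somatostatin, an inhibitory peptide of dendrite-targeting interneurons, and lies on chromosome 16 from 23889573 to 23890958 on the minus strand (GRCm38). Cck encodes cholecystokinin and lies on chromosome 9 from 121489824 to 121495694 on the minus strand. Their promoters are shown because these genes had the largest group differences, and because the cAMP response element, the site of the factor CREB, was first described in the somatostatin gene. The bases upstream of the RefSeq start site are given 5′ to 3′ on the strand of the gene, for Sst at chr16:23890845-23891094 and for Cck at chr9:121495695-121495944 of GRCm38.p6, and capitals mark the full element TGACGTCA or its shorter core TGACG on either strand.
Sst: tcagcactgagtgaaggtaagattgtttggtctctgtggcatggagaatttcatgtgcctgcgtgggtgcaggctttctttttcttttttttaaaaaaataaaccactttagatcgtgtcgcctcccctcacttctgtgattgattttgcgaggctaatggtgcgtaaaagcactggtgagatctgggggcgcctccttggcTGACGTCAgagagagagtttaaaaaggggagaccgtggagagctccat
Cck: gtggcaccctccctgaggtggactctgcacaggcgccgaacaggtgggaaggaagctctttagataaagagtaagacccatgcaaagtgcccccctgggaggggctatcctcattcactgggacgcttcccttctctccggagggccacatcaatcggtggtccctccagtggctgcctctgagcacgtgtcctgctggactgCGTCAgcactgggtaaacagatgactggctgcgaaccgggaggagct
The full element of Sst began 48 bases before the start site, and its palindrome contains the core on both strands. This RefSeq start site lies inside the span given for Sst above, and so does the element. In Cck a core on the opposite strand began 47 bases before the start site. Of 32851 RefSeq promoters, in windows of 250 bases, 1.55% held the full element and 17.8% held the core on either strand. Entries were found for 6 of the 8 members, of which 1 held the full element and 4 the core (Sst, Cck, Tac1 and Cort). Npy and Pdyn held neither. The matches describe letters and were not tied to the expression values.

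The other members lie on chromosome 6 from 49822710 to 49829507 (Npy), chromosome 4 from 4133531 to 4138819 (Penk), chromosome 2 from 129686565 to 129699844 (Pdyn), chromosome 6 from 7554879 to 7565834 (Tac1), chromosome 4 from 149125034 to 149126763 (Cort) and chromosome 3 from 19693401 to 19695396 (Crh), all in GRCm38. Npy encodes neuropeptide Y, Penk the enkephalins, Pdyn the dynorphins, Tac1 substance P and neurokinin A, Cort cortistatin, a relative of somatostatin, and Crh corticotropin-releasing hormone, which starts the hormonal stress response when it is released from the hypothalamus.

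How far each transcript stood above background decides what its group differences can show. The background was the negative-control value of the same AOI, between 16.1 and 20.9 in CA, where it was highest, and between 9.24 and 13.5 in DG, where it was lowest. Cck was highest above it, at a median of 5.36 times the negative control over the 48 AOIs and at least 2.71 times in each. Sst followed with a median ratio of 3.22, then Penk with 2.57 and Cort with 2.45. Pdyn had a median ratio of 1.95, Tac1 of 1.93 and Npy of 1.74, where the median gene stood at 1.93. Crh was at background in CA, with a median ratio of 1.02, and exceeded 1.5 times the negative control in only 21 of 48 AOIs. Each gene is read by its own probe, so these ratios rank signal over background and not transcript abundance between genes.

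**Figure D1:**
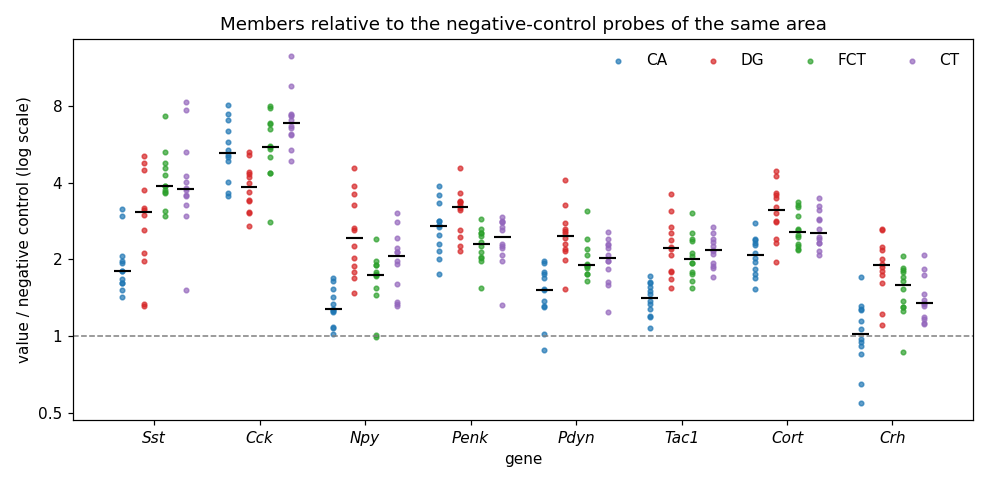
Value of each member divided by the negative-control value of the same AOI (log2-spaced axis), with 1 point per AOI, 12 in each region, a black bar at the median and a dashed line at a ratio of 1. Cck reached a ratio of 12.52 in CT and Sst 8.27, whereas the Crh points of CA lie around the dashed line, at a median of 1.02.

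Cck and Sst differed strongly between regions, and in different ways. Cck averaged 103 ± 26.4 in CA, 80.5 ± 18.8 in FCT and 106 ± 24.4 in CT, but only 43.3 ± 8.29 in DG (SD, n = 12 AOIs from 12 mice). Sst averaged 60.8 ± 18.7 in FCT and 63.7 ± 27.5 in CT, against 36.4 ± 8.97 in CA and 34.5 ± 15.3 in DG. The lowest Cck value of CT, 78.2, lay above the highest of DG, 58.9. The Sst values of cortex and hippocampus overlapped, with 21.9 as the lowest value of CT and 62.4 as the highest of DG.

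The regions were compared in 1 limma fit over 48 AOIs with the mouse as a random block, and differences were called at an adjusted p (Benjamini-Hochberg over all genes) below 0.05 and a difference beyond 1.5-fold. Of 48 combinations of member and region pair 8 were called. Cck was 2.31-fold higher in CA than in DG (log2 difference 1.21, SE 0.10, limma adjusted p 3.7e-20), and lower in DG than in FCT (log2 difference -0.87) and than in CT (log2 difference -1.27). Sst was lower in CA than in FCT and in CT (log2 difference -0.71 in each), and lower in DG than in both cortical regions (log2 difference -0.88 in each), with an SE of 0.14 in all 4. Penk was 1.52-fold higher in CA than in FCT (log2 difference 0.61, SE 0.10). This call lay at the fold threshold and was lost in 5 of 17 alternatives, at 0.55 with a pseudocount of 5 or with voom and at 0.53, 0.57 and 0.58 without GC-BuOE mouse 1, FLT-SAL mouse 2 and FLT-SAL mouse 3. That of Sst between CA and FCT was lost only without FLT-BuOE mouse 2 (log2 difference -0.58). By pair, 4.1% of all genes were called for CA against DG, 3.28% for CA against FCT, 3.98% for CA against CT, 4.54% for DG against FCT, 5.79% for DG against CT and 0.101% for FCT against CT.

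Smaller differences passed the adjusted p but not the fold threshold. Penk averaged 50.2 ± 10.8 in CA, with lower means of 34.3 ± 4.89 in DG, 32.5 ± 6.48 in FCT and 35.4 ± 7.07 in CT (SD, n = 12), and CA exceeded DG by 0.52 and CT by 0.49 on the log2 scale. Cck was higher in CA than in FCT by 0.34 and lower in FCT than in CT (log2 difference -0.40). Tac1 was lower in DG than in CT (log2 difference -0.33), with means of 25.5 ± 5.44 and 32.0 ± 4.23 (SD, n = 12). Not all of these held in the alternatives. The limma adjusted p reached at most 0.013 for Penk in CA against CT and 0.042 for Cck in CA against FCT. It reached 0.073 for Penk in CA against DG, 0.11 for Cck in FCT against CT and 0.35 for Tac1. The order of the Cck means was CT, CA, FCT and DG, in which CT and CA did not differ beyond their spread and CT against FCT did not pass in every alternative. The order of Sst was CT, FCT, CA and DG, and neither CT and FCT nor CA and DG differed beyond their spread.

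Npy, Pdyn, Cort and Crh had nearly flat means across regions. Pdyn, which dentate granule cells are known to express, averaged 28.2 ± 6.13 in DG and 27.8 to 29.6 elsewhere. Cort averaged 35.1 to 39.3, Npy 23.5 to 29.7 and Crh 19.9 to 21.9. Background was lowest in DG and highest in CA, and subtracting the negative control raised the called combinations from 8 to 21. The share of all genes called after subtraction is not given here, so this count does not set the members apart from other genes. Under subtraction Npy, Pdyn, Tac1 and Crh became lower in CA than in DG, so the regional profile of these 4 genes depends on how background is treated.

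**Figure D2:**
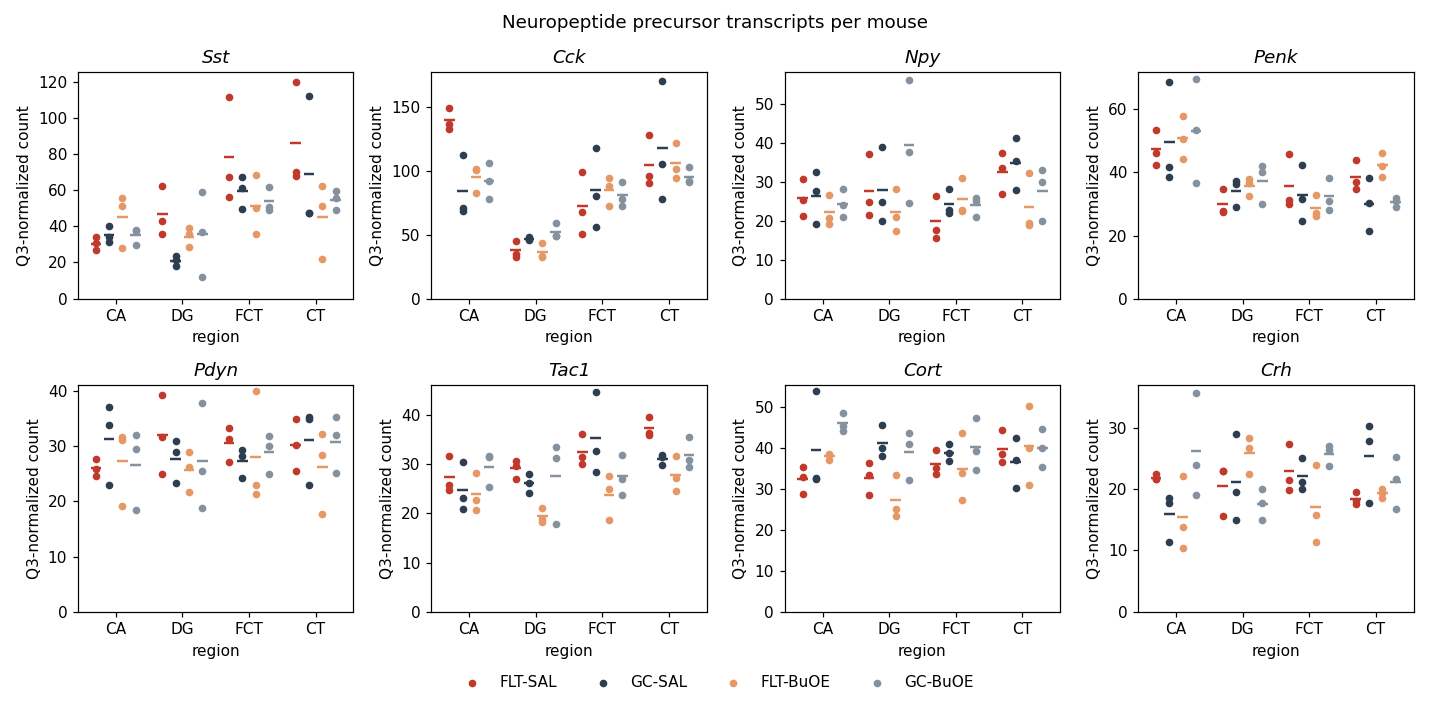
Q3-normalized counts of the 8 members in each region (linear axis from 0), with 1 point per mouse, 3 in each group, and a bar at the group mean. In CA the Cck values of FLT-SAL run from 132.4 to 149.3, above the other 9 mice, and in DG the Sst values of FLT-SAL, from 35.7 to 62.4, lie above those of GC-SAL, from 18.0 to 23.5.

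The first comparison asked what spaceflight changed in saline-treated mice. Cck rose in CA. The flight mice had 136.5, 132.4 and 149.3 normalized counts and the ground mice 70.8, 112.4 and 68.2. All flight mice lay above all ground mice, and the second ground mouse lay between the flight mice and the other ground mice. The difference was 1.70-fold (log2 fold change 0.76, SE 0.17, limma adjusted p 0.037), and 0.139% of all genes were called in this comparison. FLT-BuOE mice had 82.8, 100.8 and 100.9 and GC-BuOE mice 77.9, 92.1 and 106.0, all below the FLT-SAL values.

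The Cck call in CA held in 16 of 22 alternatives, some of which left out only a BuOE mouse, which is not part of this comparison. It was lost without a mean-variance trend (adjusted p 0.82) and when any of the 3 flight mice, or ground mouse 1 or 3, was left out (adjusted p 0.2 to 0.3), with log2 fold changes of 0.64 to 0.99 over all alternatives. Of the runs without 1 of the compared mice, only that without ground mouse 2, the highest ground value at 112.4, kept the call. Markers of CA1 pyramidal neurons differed between the same areas. Their 6 genes summed to between 607.5 and 652.7 in FLT-SAL and between 455.6 and 507 in GC-SAL of CA, and 1 of the 6, Wfs1, was called higher (log2 fold change 0.82, adjusted p 0.024 in limma). The 14 interneuron markers summed to between 454.4 and 537.2 against 402.1 to 449.1, and none was called. The numbers of nuclei overlapped, with 300 to 335 in FLT-SAL and 285 to 321 in GC-SAL, but depth did not, at 603927 to 948561 deduplicated counts against 370066 to 483270. The part of these markers and of depth in the Cck difference was not tested.

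Sst in DG had the largest fold change of any member but missed the threshold. The flight mice had 43.0, 62.4 and 35.7 normalized counts and the ground mice 23.5, 21.4 and 18.0. The groups did not overlap, and the flight values spread more widely. The probe counts behind them were 58, 120 and 50 in flight and 17, 23 and 18 on the ground, and the ground values stood close to background. The fold change was 2.14 (log2 1.10, SE 0.27, limma adjusted p 0.057), with a 95% confidence interval of 0.55 to 1.65 on the log2 scale, and 0.266% of all genes were called. Sst was called in 8 of 22 alternatives, among them edgeR (adjusted p 0.00046), and its adjusted p reached 0.72 without a trend. In 1 of the 22 it had no adjusted p, which counted as not called. Subtracting the negative control raised the log2 fold change to 1.90, with an adjusted p of 0.19.

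The DG areas differed in other ways too. FLT-SAL areas held 545 to 640 nuclei and GC-SAL areas 477 to 528, and depth was 965868 to 1372780 against 496732 to 767199 deduplicated counts. The 8 dentate granule cell markers summed to between 565 and 635.2 in FLT-SAL and between 432 and 513.3 in GC-SAL, and 1 of them, C1ql2, was called higher. The 6 astrocyte markers were also apart, at 385.4 to 420 against 301.2 to 350, and so were the 4 microglia markers, at 94.13 to 104.3 against 111.1 to 118.2, with none called. The 14 interneuron markers overlapped, at 399.5 to 468.8 against 397.5 to 414.2. Genes that accompany Sst in interneurons had log2 fold changes of -0.52 for Satb1, -0.34 for Chodl, -0.27 for Elfn1, -0.10 for Grin3a and 0.01 for Nos1, none of them called by limma (adjusted p 0.36 to 1). The part of nuclei, depth and the content of other cells in the Sst values was not tested.

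Elsewhere the flight and ground values of Sst in saline mice overlapped. In FCT flight mice had 67.5, 56.5 and 111.5 and ground mice 61.1, 67.5 and 49.4, and in CT 67.7, 120.1 and 70.3 against 47.3, 112.4 and 47.5. In CA they had 30.6, 26.7 and 33.9 against 40.0, 34.3 and 31.1. One mouse of each group in CT was far above its companions, and these were mouse 2 of FLT-SAL and mouse 2 of GC-SAL, which lay on different slides. Averaged over the 4 regions, Sst was higher in FLT-SAL by 0.41 on the log2 scale (SE 0.14, limma adjusted p 0.16).

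Cck in DG had a fold change of the opposite sign. Flight mice had 32.6, 45.2 and 35.0 and ground mice 48.3, 46.5 and 46.0, without overlap, but the difference was not called (log2 fold change -0.33, SE 0.19, limma adjusted p 0.77). The flight effect on Cck in CA exceeded that in DG by 1.09 on the log2 scale (SE 0.27, limma adjusted p 0.6), that in FCT by 0.97 and that in CT by 0.88, none of them called. For Sst the flight effect in CA lay below that in DG (log2 difference -1.30, SE 0.38, adjusted p 0.85 in limma). Over 48 combinations of member and region pair 0 differences of the flight effect were called by limma and 0 by voom, while 5 had an unadjusted p below 0.05, where 0.00739% of all tests were called and 4.45% had such a p. The Cck call in CA was thus not shown to be particular to CA.

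A few further pairs met the rule for naming without a call. Cort in DG was lower in flight, at 33.4, 28.6 and 36.4 against 40.0, 45.6 and 38.0 (log2 fold change -0.32, SE 0.20, limma adjusted p 0.8). Crh in CA was at 22.4, 21.6 and 21.6 in flight and 18.5, 11.4 and 17.8 on the ground (log2 fold change 0.46, SE 0.34, limma adjusted p 0.88), both near the negative control. Tac1 in CT was at 36.4, 39.5 and 35.9 against 31.5, 31.8 and 29.8 (log2 fold change 0.26, SE 0.19, limma adjusted p 1). Penk in CT overlapped, at 37.1, 44.0 and 34.9 against 30.3, 38.1 and 21.4 (log2 fold change 0.39, SE 0.19, limma adjusted p 0.95).

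Over all 32 combinations of member and region in FLT-SAL against GC-SAL, 1 was called, 3 had an unadjusted p below 0.05 and 6 had groups that did not overlap. Among all genes these shares were 0.136%, 6.27% and 12.6%. The 32 log2 fold changes ran from -0.41 to 1.10 with a median of -0.02, 15 above 0 and 17 below. With 3 mice in each group the exact permutation p cannot go below 0.1, and the pairs that did not overlap had this value.

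**Figure D3:**
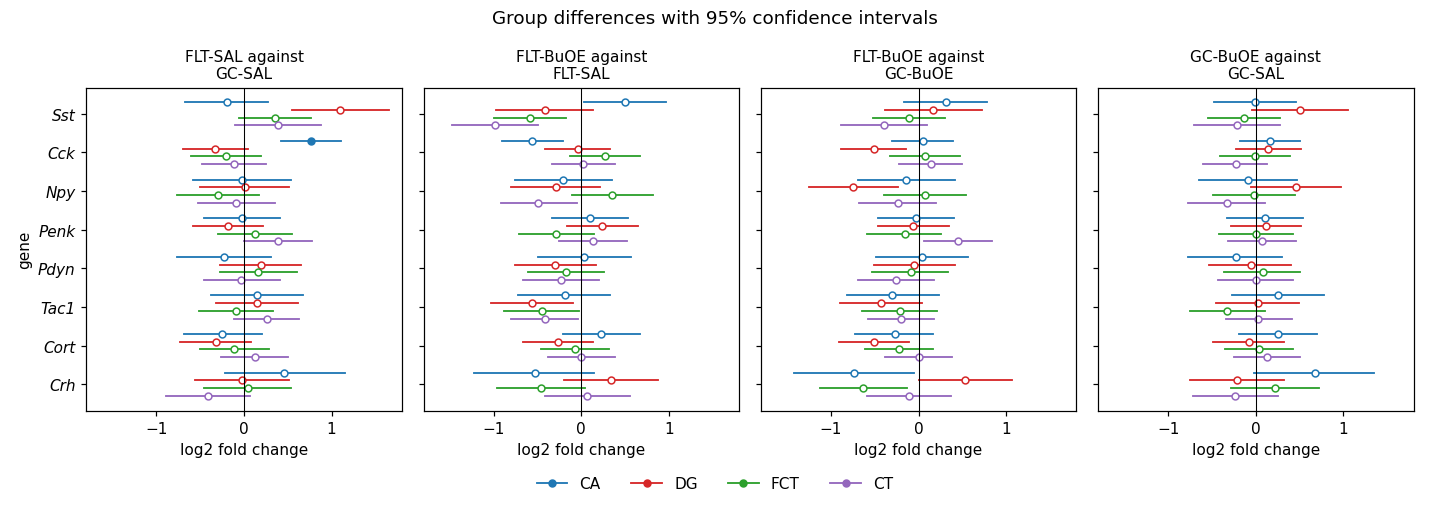
Log2 fold changes (points) with 95% confidence intervals (lines) from limma for the 8 members in 4 comparisons, coloured by region, with filled points where the difference was called. The single filled point is Cck in CA for FLT-SAL against GC-SAL, and the Sst interval in DG of 0.55 to 1.65 is the farthest to the right.

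The next comparison set BuOE against saline within the flight mice. No member was called by limma, edgeR, DESeq2 or voom in any region (0 of 32), while 8 had an unadjusted p below 0.05 and 6 had groups that did not overlap. Among all genes the shares were 0.0269% called, 6.14% and 11.7%. These contrasts share the FLT-SAL mice with the first comparison, so a high FLT-SAL value enters both. Sst and Tac1 in FCT and Npy and Tac1 in CT had no adjusted p in 1 alternative each, which counted as not called.

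Sst in CT came closest to a call. FLT-BuOE mice had 21.9, 51.1 and 62.3 normalized counts and FLT-SAL mice 67.7, 120.1 and 70.3, without overlap. The fold change fitted on the log2 scale was 0.504 (log2 -0.99, SE 0.24, limma adjusted p 0.11), and 0.0697% of all genes were called. Without FLT-BuOE mouse 1 the log2 fold change was -0.55 (limma adjusted p 0.99), and over all alternatives the adjusted p ran from 0.0059 to 1. The GC-BuOE mice had 49.2, 59.4 and 55.4. Oligodendrocyte markers differed between the same areas, with 8 genes summing to between 671.4 and 816 in FLT-BuOE and between 1321 and 1846 in FLT-SAL, and the 7 cortical pyramidal cell markers were apart in the other direction, at 404.1 to 531.4 against 327.2 to 368.9. The 14 interneuron markers overlapped in sum, at 564.9 to 631.5 against 569.8 to 652.2, but their members went both ways, with 2 lower at an unadjusted p below 0.05 and 1, Lamp5, called higher (log2 fold change 1.19, adjusted p 2.1e-05 in limma). Nuclei numbered 416 to 448 in FLT-BuOE and 549 to 598 in FLT-SAL, and depth was 545668 to 916917 against 988810 to 1440631 deduplicated counts. The part of cell content, nuclei and depth in the Sst values was not tested.

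Sst in FCT was lower in FLT-BuOE, at 35.7 to 68.5 (log2 fold change -0.59, SE 0.20, limma adjusted p 0.44), and in CA it was higher, at 51.1, 28.2 and 55.7 (log2 fold change 0.50, SE 0.24, limma adjusted p 0.99). Cck in CA was lower, with the values given above and no overlap (log2 fold change -0.56, SE 0.17, limma adjusted p 0.57). Tac1 was lower in 3 regions without overlap, in AOIs of the same mice and slides. In DG it was at 18.3, 18.8 and 21.1 against 29.6, 27.0 and 30.7 (log2 fold change -0.56), in FCT at 18.6, 27.6 and 25.0 against 31.4, 30.0 and 36.0 (-0.45) and in CT at 27.1, 24.5 and 31.6 against 36.4, 39.5 and 35.9 (-0.42), with limma adjusted p of 0.77, 0.61 and 0.81. The remaining pairs under this rule were Npy in CT at -0.49 (adjusted p 0.81 in limma), where FLT-BuOE mice had 19.4, 18.9 and 32.3, and Cort in CA at 0.23, where they had 38.6, 37.1 and 38.3 against 33.0, 28.7 and 35.4.

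Under BuOE the flight mice were also compared with their own ground controls. Limma, edgeR, DESeq2 and voom called 0 of 32, 6 had an unadjusted p below 0.05 and 4 had groups that did not overlap, against 0.0459%, 7.39% and 10.9% of all genes. An alternative that gave no adjusted p counted as not called. This held for 1 alternative each of Npy, Cck, Cort and Crh in DG and Crh in CA. Of the 6 members with an unadjusted p below 0.05, 3 were in DG. Npy was at 28.3, 17.5 and 21.1 in flight and 37.8, 56.3 and 24.5 on the ground (log2 fold change -0.75, SE 0.25, limma adjusted p 0.31). Cck was at 33.4, 43.8 and 32.2 against 58.9, 48.8 and 48.9, without overlap (log2 fold change -0.51, SE 0.19, limma adjusted p 0.38), and Cort at 33.4, 25.0 and 23.3 against 32.2, 43.8 and 41.1 (log2 fold change -0.51, SE 0.20, limma adjusted p 0.44). Cck and Cort in DG thus lay below the ground controls in both treatments, with log2 fold changes of -0.33 and -0.32 under saline, and neither was called in either.

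Sst in DG gave no such difference under BuOE, with 28.3, 38.8 and 35.6 in flight and 36.7, 58.8 and 12.2 on the ground. The last of these ground values was the lowest Sst value of all 48 AOIs, and its AOI also had the lowest sequencing saturation of the 48. Outside DG, Crh was lower in flight in CA (-0.74, SE 0.34) and in FCT (-0.63, SE 0.25) and Penk was higher in CT, at 38.7, 42.2 and 46.2 against 30.9, 32.0 and 29.2 (log2 fold change 0.45, SE 0.19), with limma adjusted p of 0.64, 0.58 and 0.67. Crh in DG, at 28.3, 22.5 and 26.7 against 20.0, 15.0 and 17.8, and Cort in CA, at 38.6, 37.1 and 38.3 against 44.2, 45.4 and 48.7, did not overlap (log2 fold changes 0.53 and -0.27, limma adjusted p 0.61 and 0.84).

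BuOE was compared with saline on the ground last. Limma, edgeR, DESeq2 and voom called 0 of 32 for GC-BuOE against GC-SAL, and 0 had an unadjusted p below 0.05, where 0.00158% and 5.05% of all genes did. In 2 pairs the groups did not overlap, against 9.58% of all genes. These were Crh in CA, at 19.0, 24.0 and 35.7 against 18.5, 11.4 and 17.8 (log2 fold change 0.67, SE 0.34, limma adjusted p 0.88), and Cck in DG (log2 fold change 0.14, SE 0.19, limma adjusted p 0.98). Crh in CA had no adjusted p in 1 alternative, which counted as not called.

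Whether BuOE altered the flight effect was tested by the interaction. Limma and edgeR called 0 of 32, and 5 had an unadjusted p below 0.05, against 0.00792% and 5.51% of all genes. The 5 were Cck in CA (-0.71, SE 0.24), Crh in CA (-1.20, SE 0.49), Sst in DG (-0.93, SE 0.39), Npy in DG (-0.75, SE 0.36) and Sst in CT (-0.78, SE 0.35), each with a smaller or more negative flight effect under BuOE on the log2 scale and limma adjusted p of 0.7 to 0.99. Single mice moved several of these values. The Sst interaction in DG was -0.45 without GC-BuOE mouse 2 and -1.54 without GC-BuOE mouse 3, which held the lowest Sst value. In CT it was -0.34 without FLT-BuOE mouse 1, -1.19 without GC-SAL mouse 2 and -0.51 when mouse 2 of FLT-SAL was left out. The Npy interaction in DG was -0.46 without GC-BuOE mouse 2.

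Averaged over the 4 regions, 0 of 8 members were called in FLT-SAL against GC-SAL by limma or voom, with 1 at an unadjusted p below 0.05, where 0.095% and 9.89% of all genes were. Averaged also over saline and BuOE, 0 of 8 were called by either tool and 2 had such a p, against 0.0507% and 12.2%. Those 2 were Cort, lower in flight (log2 difference -0.20, SE 0.07, limma adjusted p 0.17), and Sst, higher by 0.20 (SE 0.10, limma adjusted p 0.41). In exact two-sided permutation tests on the mean of the 4 regions of each mouse, permuted within saline and within BuOE, Cort gave p = 0.01, Npy p = 0.03 and Sst p = 0.21 among the 8 members tested, where 0.005 was the smallest p possible. Mean log2 values of Cort were 5.17 and 5.14 in FLT-SAL and FLT-BuOE and 5.31 and 5.40 in GC-SAL and GC-BuOE.

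The members varied largely independently of each other. Residuals from the 16 means of region and group gave Pearson correlations from -0.24 to 0.45 over the 28 pairs of members, with a median of 0.08 across 48 AOIs. The highest were Penk with Tac1 at 0.45 and Sst with Npy at 0.41, a pair that many cortical interneurons express together. These points share mice, slides and depth, and low counts limit them. Over the same 48 AOIs, including region differences, the pattern most like that of Cck among 13829 genes above background was that of Prkcb (r = 0.84), then Khdrbs3 (0.84) and Dkk3 (0.83). For Sst it was Gap43 (0.74), Uchl1 (0.72) and Spock2 (0.72), and for Penk Map4, Kcnab1 and Klf16 (0.67, 0.67 and 0.66). The best matches of the other 5 reached 0.52 to 0.64.

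Other genes of the neuropeptide pathway were read from lists. Of 31 measured among 41 further precursor genes, 0 were called by limma in FLT-SAL against GC-SAL in any region, with medians of -0.11 to 0.06 where all genes had -0.01 to 0.03, and 2, 3, 0 and 2 had an unadjusted p below 0.05 (CA, DG, FCT and CT in that order), where 6.73%, 7.41%, 5.66% and 5.27% of all genes did. The largest change was in Pnoc, the precursor of nociceptin, at 34.9, 31.5 and 29.8 in flight and 14.6, 21.6 and 21.4 on the ground in CT (log2 fold change 0.73, SE 0.21, limma adjusted p 0.28). Next were Tac2 in CA at 0.62, Ghrh in DG at -0.54 and Cartpt in CA at -0.52.

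Of 15 genes for precursor processing and dense-core vesicles, 1 was called, in FCT, where 8 of all 15782 genes were. Scg2, which encodes secretogranin II, a vesicle protein and itself the precursor of secretoneurin, fell in FCT. Flight mice had 54.3, 35.7 and 55.8 normalized counts and ground mice 96.9, 86.3 and 102.4, without overlap (log2 fold change -0.98, SE 0.17, limma adjusted p 0.0033). FLT-BuOE mice had 87.2, 76.5 and 60.0 and GC-BuOE mice 88.7, 88.9 and 101.0, so the FLT-SAL values lay below those of the other 9 mice. These flight and ground areas also stood apart in nuclei (568 to 602 against 400 to 472), in depth (991160 to 1579380 against 601288 to 897280 deduplicated counts), in the sum of the 8 oligodendrocyte markers (1242 to 1935 against 1037 to 1214) and in that of the 14 interneuron markers (559 to 624.6 against 430.8 to 492), and their part in the Scg2 difference was not tested. No gene of the list was called in CA or DG, where its median log2 fold changes were 0.10 and 0.23 against 0.02 and -0.01 for all genes. At an unadjusted p below 0.05, 4 of the 15 were higher and 0 lower in CA, and 2 and 0 in DG. In FCT these were 1 and 1 and in CT 2 and 1, where all genes had the shares given for the precursors. Scg5, a chaperone of the convertase encoded by Pcsk2, was at 104.8, 94.4 and 85.4 in flight and 53.9, 55.3 and 66.7 on the ground in CA (log2 fold change 0.69, SE 0.18, limma adjusted p 0.11). Pcsk2 itself was at 0.61 in CA, Pcsk1n, an inhibitor of the convertase encoded by Pcsk1, at 0.60 in FCT and the granin gene Chgb at 0.59 in CT, with limma adjusted p of 0.49, 0.36 and 0.17.

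Among 19 genes for receptors of these peptides and the binding protein Crhbp, 0 were called by limma in any region, with medians of -0.06 to 0.06 and 3, 0, 0 and 1 at an unadjusted p below 0.05 in CA, DG, FCT and CT, where all genes had the shares given for the precursors. Both cholecystokinin receptor genes had fold changes below 0 on the log2 scale in CA, where Cck itself rose, and neither was called. Both stood near background there, with means of 29.8 for Cckar and 26.7 for Cckbr where the negative control was 16.1 to 20.9. One flight value of Cckbr, 16.4, lay below the lowest control of FLT-SAL in CA, 16.9. Cckar was at 24.7, 24.6 and 29.2 in flight and 41.6, 38.1 and 38.5 on the ground (log2 fold change -0.57, SE 0.27, limma adjusted p 0.71), and Cckbr at 23.5, 16.4 and 26.9 against 24.6, 47.6 and 35.6 (log2 fold change -0.64, SE 0.28, limma adjusted p 0.67). Oprk1, the receptor gene for dynorphin, stood at -0.57 in CA and Sstr2, a somatostatin receptor gene, at -0.45 in CT. Among the receptors Sstr4, chosen after its values were seen, averaged 82.9 in CA and 27.6 in DG, with 51.2 in FCT and 41.7 in CT between them.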

How the data were processed

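Whole transcriptome probe counts came from 48 AOIs of 12 mice, 4 groups of 3, grouped by the sample labels. The authors made probe counts with the GeoMx NGS Pipeline 2.3.4 and deposited them without normalization. The authors deposited the Q3-normalized signal of 15782 genes per region. Fold changes and p-values of their own comparisons were not used.

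Tests were run with limma 3.58.1 (R 4.3.3) on log2(Q3-normalized count + 1), as set out in the report, with 8 residual degrees of freedom within a region and a mean-variance trend. Fold changes are on this scale and understate changes of low genes. Alternatives used edgeR 4.0.16, DESeq2 1.42.0 and voom on the probe counts, which matched exactly 1 probe for 15777 genes. Dividing normalized values by the step of each AOI gave whole counts for 99.98% of values within 0.02. Scripts were tested on simulated counts. Exact tests used SciPy 1.17.1.

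The members, lists, thresholds and alternatives were chosen with earlier results of these data known. Fold changes are given for members that were called, had an unadjusted p below 0.05 or had groups that did not overlap, and of each list for called genes and at most 4 others. Replicate numbers were not treated as pairing mice in the main fits. Within a region, p-values rest on 1 AOI per mouse and on 1 slide per group, so they measure the spread between mice of a slide. The fits over 48 AOIs use 4 AOIs of each mouse. The correlation fitted for AOIs of 1 mouse was 0.0255, so these fits count the AOIs as nearly independent, and their p-values do not measure the spread between mice alone. Lists for striatal neurons, cortical pyramidal cells, astrocytes, microglia, vessel wall, thalamus, and hypothalamus and amygdala were also checked. One gene of a marker list is not reported here.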

Additional observations from a re-analysis of the deposited data

How the results depend on the processing

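In FLT-SAL against GC-SAL the number of members called, 1 of 32, became 2 with a pseudocount of 5, with only the 2 groups compared, with voom and with edgeR, the second being Sst in DG, and 0 without a mean-variance trend. It ranged from 0 to 2 when single mice were left out. In FLT-BuOE against FLT-SAL it was 0, and 0 to 1 when single mice were left out. With the replicate number as a block it was 2 in the former and 1 in the latter, Sst in CT, and 0 as before in the other 2 comparisons and the interaction. Of 72 same-numbered pairs, 1 had residuals correlated above 0.1 (range -0.179 to 0.125). Weak correlations of such residuals cannot decide whether the numbers carry a pairing, for example by position on the slide. Region differences of members rose from 8 to 21 when the negative control was subtracted, a count given without the share of all genes. Differences of the flight effect were 0 to 1 when single mice were left out, the 1 being Cck in CA against DG without GC-SAL mouse 2. For the 55 member results named, 1002 of 1031 recomputed values kept direction and side of the threshold, 12 lost the call, 17 gained it and 0 reversed. The cause of these shifts was not tested. Most of the 55 results were not called to begin with, so the pooled number says little about how stable the calls are. The only group difference called, Cck in CA, kept its call in 16 of 22 alternatives. Probe counts of 6 to 48 for Crh limit what its values can show.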

Other observations

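Genes that neuronal activity induces were read beside the precursors, because the cAMP response element shown for Sst is a site of activity-dependent transcription. Of 15 such genes, limma called 1 lower in FLT-SAL than in GC-SAL in CA and FCT (Arc), 2 lower in CT (Arc and Nr4a1) and 0 in DG, where 2 had an unadjusted p below 0.05. Of all 15782 genes 22, 8, 14 and 42 were called in CA, FCT, CT and DG. The median log2 fold changes were -0.15, 0.07, -0.31 and -0.37 in CA, DG, FCT and CT, against 0.02, -0.01, 0.03 and 0.01 for all genes. In CT, Arc had a log2 fold change of -1.56 and Nr4a1 of -0.84. The Sst and Cck values of the same areas overlapped between the groups. These areas also stood apart in the sum of the 8 oligodendrocyte markers (1321 to 1846 in FLT-SAL against 730.1 to 799.8 in GC-SAL), and 1 GC-SAL area held 140 nuclei. A link between the activity-induced genes and the members was not tested, nor was the part of cell content.

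Of the marker lists for other cells, the 8 oligodendrocyte genes measured had 4 called higher in CT of FLT-SAL against GC-SAL. In CT of FLT-BuOE against FLT-SAL they had 4 called lower. Of all 15782 genes 14 and 11 were called in these comparisons. Both use the same FLT-SAL areas on 1 slide, so high FLT-SAL values enter both. The 7 cortical pyramidal cell genes had 1 called in the latter, Lamp5, which the interneuron list holds too. Limma called 0 genes of the lists for striatal neurons, astrocytes, microglia, vessel wall and meninges, thalamus, and hypothalamus and amygdala in the 4 comparisons between groups.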
